A study of Mus musculus with 36 samples.

Results

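The T cell receptor (TCR) beta chain was followed through all of its gene segments in CD4+ T cells of the mouse, before and after transfer into bone marrow graft recipients. The members were the genes whose symbol starts with Trbv, Trbd, Trbj or Trbc, that is the variable, diversity, joining and constant segments of the beta locus. The rule found 53 of the 56748 genes in the count tables, of which 35 were V, 2 were D, 14 were J and 2 were C segments. Among the V segments, 22 were annotated as functional genes and 13 as pseudogenes, and 48 of the 53 members had at least 1 count in some library.

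RNA-seq was made from 36 libraries of spleen CD4 T cells in 12 groups of 3 replicates, and 35 libraries were used. The groups crossed 2 mouse lines, 2 genotypes (WT and KO) and 3 conditions. In the HP1α line (labelled HP1a), the KO lacked Cbx5 in every tissue through CMV-cre, and the WT were control mice of the same crosses. In the HP1γ line (labelled HP1g), floxed Cbx3 was removed by Cd4-cre, which acts only in cells that have passed through a stage with Cd4 expression, and the WT carried the floxed gene without Cre. Both lines had a mixed 129/Sv and C57BL/6 background. Naive CD4+ T cells were taken straight from donor spleens, without any selection on the beta chain. For the other conditions, naive cells of one genotype were injected into irradiated B6 mice together with a mixture of B6 and semi-allogeneic B6D2F1 marrow, either alone (Tconv) or with WT Treg expanded ex vivo (Tconv with Treg). The injected Tconv were sorted back from the spleen 3 weeks later as Thy1.1- cells that stained for Vβ6, the chain encoded by Trbv19. The hosts kept their own cells and the co-injected Treg, which the sort was meant to leave out. For poor read quality the study dropped the last replicate of HP1γ KO Tconv with Treg, and it was dropped here too. That group therefore had 2 libraries. Nothing in the labels says whether replicates were separate animals, so p-values measure only the spread between these samples, which may be technical.

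A beta chain is assembled in the thymus when recombination joins 1 V, 1 D and 1 J segment in front of a constant gene, and the joined gene is then fixed for all descendants of that cell. The V segment contributes most of the chain that touches peptide and MHC, while the junction forms the most variable loop. Some V segments also bind viral superantigens of the mouse mammary tumour virus (MMTV), whatever the peptide. Cells with Vβ6, Vβ7, Vβ8.1 or Vβ9 chains, encoded by Trbv19, Trbv29, Trbv13-3 and Trbv17, are known to respond to the superantigen of MMTV-7, which DBA/2 and therefore B6D2F1 cells carry and B6 cells lack. In a bulk library, fewer cells of one kind and less RNA per cell cannot be told apart, so a segment's share is a share of transcripts, not of cells.

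The beta locus spanned chr6:40868163-41535386 of GRCm39, or 667 kb. Trbv19 (ENSMUSG00000076475) lay on the plus strand at chr6:41155309-41155982, and Trbv17 (ENSMUSG00000076474) at chr6:41139996-41140490, 14818 bases upstream, with only the pseudogene Trbv18 between them. The V parts of both are shown because these segments took most of the V counts after grafting. Each is the second exon in the reference genome (of Trbv19 its last 300 bases), 5′ to 3′, and the capitals mark the germline start of the junction from the conserved cysteine codon onward. Trbv19 is given for chr6:41155683-41155982 and Trbv17 for chr6:41140196-41140490, both on the plus strand.
Trbv19: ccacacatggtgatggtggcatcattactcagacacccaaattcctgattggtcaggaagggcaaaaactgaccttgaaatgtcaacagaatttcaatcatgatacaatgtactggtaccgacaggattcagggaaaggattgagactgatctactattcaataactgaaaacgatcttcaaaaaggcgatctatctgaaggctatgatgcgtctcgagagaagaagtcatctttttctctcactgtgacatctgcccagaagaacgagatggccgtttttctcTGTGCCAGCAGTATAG
Trbv17: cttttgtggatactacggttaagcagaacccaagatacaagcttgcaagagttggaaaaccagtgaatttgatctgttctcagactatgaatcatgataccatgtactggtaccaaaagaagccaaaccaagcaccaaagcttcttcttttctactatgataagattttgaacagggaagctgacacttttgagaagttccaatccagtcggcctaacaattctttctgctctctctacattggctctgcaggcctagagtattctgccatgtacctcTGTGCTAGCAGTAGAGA
The exons of the pair were identical at 70.1% of 355 aligned bases, and their longest shared run was 13 bases. Every library held whole counts for both, so the counter did not have to split reads between them. By contrast, Trbv13-2 and Trbv13-3 were 90.6% identical, and Trbv12-1 and Trbv12-2 were 88.3% identical. Members of these families held fractional counts in some libraries, so the division within a family is less certain than its sum. Trbv4 and Trbv5 held fractional counts too, in 35 and 34 libraries.

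Recombination is directed by a signal directly behind each V segment, made of a heptamer, a 23-base spacer and a nonamer. It is shown for the same pair, with heptamer and nonamer in capitals, at chr6:41155983-41156021 for Trbv19 and chr6:41140491-41140529 for Trbv17.
Trbv19: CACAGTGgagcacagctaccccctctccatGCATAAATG
Trbv17: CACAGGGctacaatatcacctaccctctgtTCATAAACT
The Trbv19 signal matched the consensus heptamer CACAGTG at 7 of 7 bases and the consensus nonamer ACAAAAACC at 5 of 9. The Trbv17 signal matched at 6 of 7 and 6 of 9 bases. Read on the segment's own strand at the annotated 3′ end, an exact heptamer followed 7 of the 22 functional V segments. An exact nonamer followed 1 of them, Trbv1. These counts depend on the annotated ends. In Trbv21 an exact heptamer started shortly after that position, and in Trbv3 only 1 of 7 bases matched there.

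D and J segments are too short to be counted well, which is plain from their sequences on the plus strand, at chr6:41510135-41510146, chr6:41519097-41519110, chr6:41510798-41510845 and chr6:41520744-41520790 in this order.
Trbd1: gggacagggggc
Trbd2: gggactgggggggc
Trbj1-1: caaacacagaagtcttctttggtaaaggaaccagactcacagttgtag
Trbj2-7: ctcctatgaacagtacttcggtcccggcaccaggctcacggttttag
With 12 and 14 bases, Trbd1 and Trbd2 had 0 counts in every library, which allows up to 3 counts per library, or 0.0476 to 0.0810 CPM (counts relative to the library total) before scaling.

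Depth was similar across the libraries used. Totals ranged from 37029519 to 63042245 counts, with a median of 46844690, and 20160 to 23368 genes were detected. The members together took 0.156 to 0.465% of all counts. Libraries were built from 10 pg of total RNA per the labels, so counting intervals understate the sampling error. CD4 T cell markers (Cd4, Cd3d, Cd3e, Cd3g and Trac) summed to 4192 to 7472 CPM over all 35 libraries. CD8 T and NK cell markers summed to 6.998 to 30.4 CPM. Markers of other cells varied more after grafting. The 6 myeloid genes summed to 6.40 to 13.8 CPM in naive and 6.82 to 376 CPM in grafted libraries. The 4 erythroid genes summed to 5.87 to 102 CPM in naive and 1.03 to 4169 CPM in grafted libraries. In grafted HP1α cells both sums were higher in KO than in WT, without overlap. Myeloid sums in WT and KO were 6.82 to 8.33 and 12.2 to 134 CPM in Tconv. With Treg they were 23.4 to 50.0 and 110 to 376 CPM. Erythroid sums in WT and KO were 1.03 to 2.52 and 17.0 to 490 CPM in Tconv. With Treg they were 1.46 to 29.1 and 73.8 to 442 CPM. In grafted HP1γ cells, WT and KO overlapped. The part of other cells in the KO comparisons was not tested.

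In naive cells the V repertoire was broad, and most segments took similar shares in every library. Trbv26 (0.551 to 2.71% of Trbv counts) and Trbv23 (0.0969 to 0.669%) were exceptions, described below. Trbv19 took 7.18 to 9.69% of Trbv counts in the 12 naive libraries, with a mean of 8.68% ± 0.703 (SD, n = 12). Trbv17 took 2.14 to 2.64%, with a mean of 2.34% ± 0.153 (SD, n = 12). Trbv3 was the leading segment in all 12. As a measure of spread, the effective number of V segments (the number of equally used segments that would give the same concentration of counts) was 13.4 to 15.0.

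Per kilobase of exon, which allows genes to be ranked, Trbv3 led the 6 naive WT libraries with 11.4% ± 0.938 (SD) of the length-scaled Trbv signal. Trbv13-2 (Vβ8.2) followed with 8.73% ± 0.603, Trbv31 (Vβ14) with 8.39% ± 1.01 and Trbv1 (Vβ2) with 7.52% ± 0.317. Of these, Trbv3 stood above the others by more than its spread, while Trbv13-2 and Trbv31 differed by less than theirs. Trbv13-3 came next with 6.97% ± 0.542, ahead of Trbv16 with 6.60% ± 0.450, Trbv13-1 with 6.54% ± 0.383, Trbv5 with 6.40% ± 0.599 and Trbv19 with 6.24% ± 0.342, and neighbours among these 5 lay within one another's spread. Trbv17 stood lower, at 2.55% ± 0.202. These ranks depend on annotated exon lengths, such as 566 bases for Trbv19 and 455 for Trbv3. The annotation may differ from the one used for counting.

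After grafting, Trbv19 was the leading V segment in all 23 grafted libraries and Trbv17 was second in all 23. Since the cells were sorted for Vβ6, the rise of Trbv19 and the fall of most other V segments were set by the sort, and their size is given here as a description. Trbv17 was not sorted for. The plot of V shares by library shows both segments beside all the others.

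**Figure D1:**
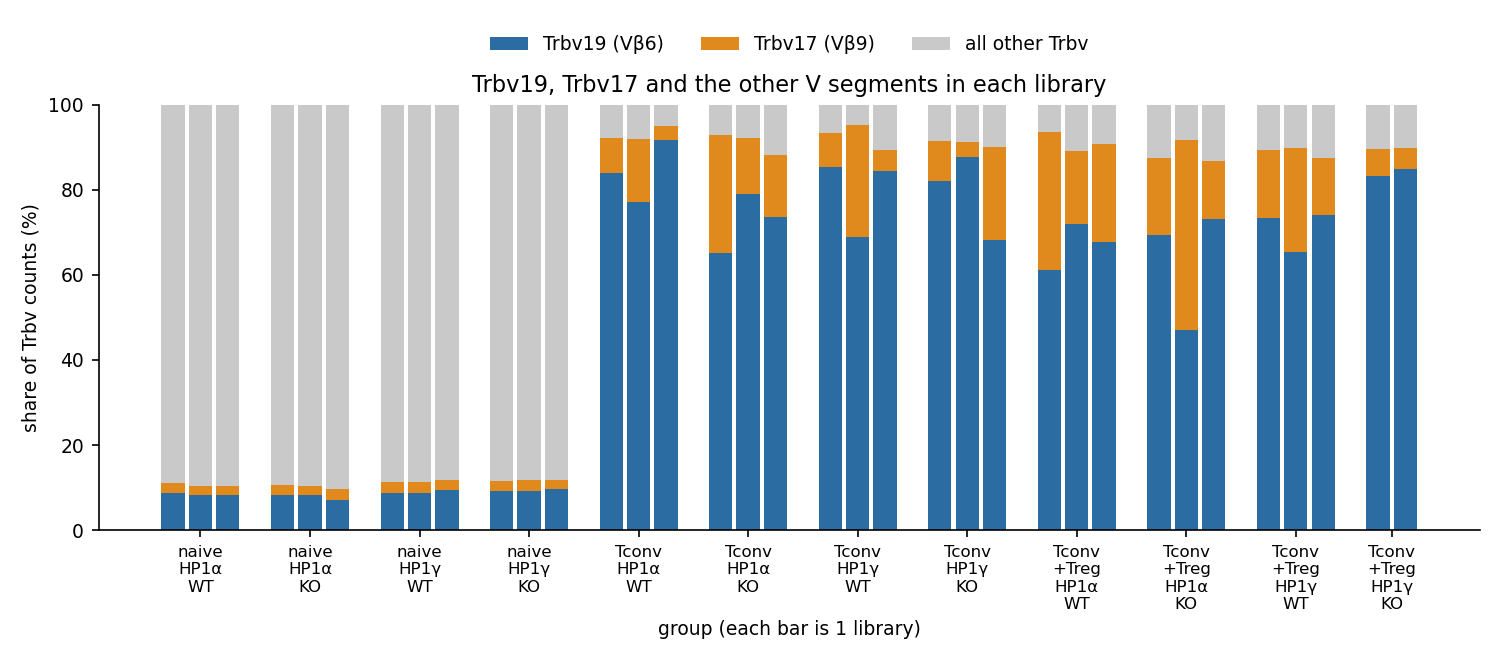
Share of Trbv counts (%, vertical axis) taken by Trbv19, Trbv17 and all other V segments in each of the 35 libraries, 1 bar per library, by group. Trbv19 took 7.18 to 9.69% in naive and 47.1 to 91.7% in grafted libraries, and Trbv17 took 2.14 to 2.64% in naive and 3.28 to 44.5% in grafted libraries.

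Without Treg, Trbv19 took 84.0, 77.2 and 91.7% of Trbv counts in HP1α WT replicates 1 to 3 and 65.1, 79.1 and 73.6% in HP1α KO. The corresponding values were 85.4, 68.9 and 84.5% in HP1γ WT and 82.1, 87.8 and 68.3% in HP1γ KO. The 12 Tconv libraries averaged 78.99% ± 8.47 (SD), and the KO and WT values overlapped in both lines.

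With Treg, Trbv19 took 61.3, 71.9 and 67.8% in HP1α WT, 69.3, 47.1 and 73.2% in HP1α KO, 73.3, 65.3 and 74.1% in HP1γ WT and 83.2 and 85.0% in HP1γ KO. The mean of the 11 libraries was 70.13% ± 10.3 (SD). The second HP1α KO library was the lowest of all grafted libraries, and the 2 HP1γ KO libraries were the highest with Treg. Wilson 95% confidence intervals, which cover counting error only, ran from 46.6 to 47.7% for the lowest share and from 91.4 to 92.1% for the highest, so the spread between replicates far exceeded counting error.

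In 18 of the 23 grafted libraries Trbv17 held more of the Trbv counts than all the remaining V segments except Trbv19 together, and in the other 5 it held less. Without Treg, Trbv17 took 8.20, 14.7 and 3.28% of Trbv counts in HP1α WT, 28.0, 13.1 and 14.6% in HP1α KO, 7.91, 26.3 and 4.78% in HP1γ WT and 9.26, 3.38 and 21.8% in HP1γ KO. With Treg it took 32.2, 17.2 and 22.9% in HP1α WT, 18.1, 44.5 and 13.6% in HP1α KO, 16.2, 24.6 and 13.3% in HP1γ WT and 6.40 and 4.93% in HP1γ KO. All 23 values lay above all 12 naive values, over a range of more than 10-fold among grafted libraries. Added together, Trbv19 and Trbv17 made up 86.8 to 95.2% of Trbv counts after grafting against 9.67 to 11.9% in naive cells, and the effective number of V segments was 1.19 to 2.37.

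The other 2 chains known to see the MMTV-7 superantigen did not follow Trbv17. Trbv29 (Vβ7) was at 5.46 to 10.2 CPM in naive and 0.0439 to 3.23 CPM in grafted libraries. Trbv13-3 (Vβ8.1) was at 25.2 to 52.1 CPM in naive and 0.323 to 9.25 CPM in grafted libraries. For neither segment did the ranges overlap, and both were lower after grafting, as most V segments were. The sort for Vβ6 set this fall, so nothing about the superantigen is read from it. Here and below, CPM values were scaled by the trimmed mean of M values.

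The remaining V segments were not evenly reduced. Of the 20 functional V segments other than Trbv19 and Trbv17, 16 were lower in each of the 23 grafted libraries than in all 12 naive ones, as a share of Trbv counts. The exceptions were Trbv12-1, Trbv12-2, Trbv21 and Trbv23, which were lower than all naive libraries in 22, 20, 16 and 22 of the 23. Shares of the 20 segments also varied far more after grafting, with a median coefficient of variation of 105.9% against 10.7% in naive cells. The plot of all functional V segments shows this spread.

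**Figure D2:**
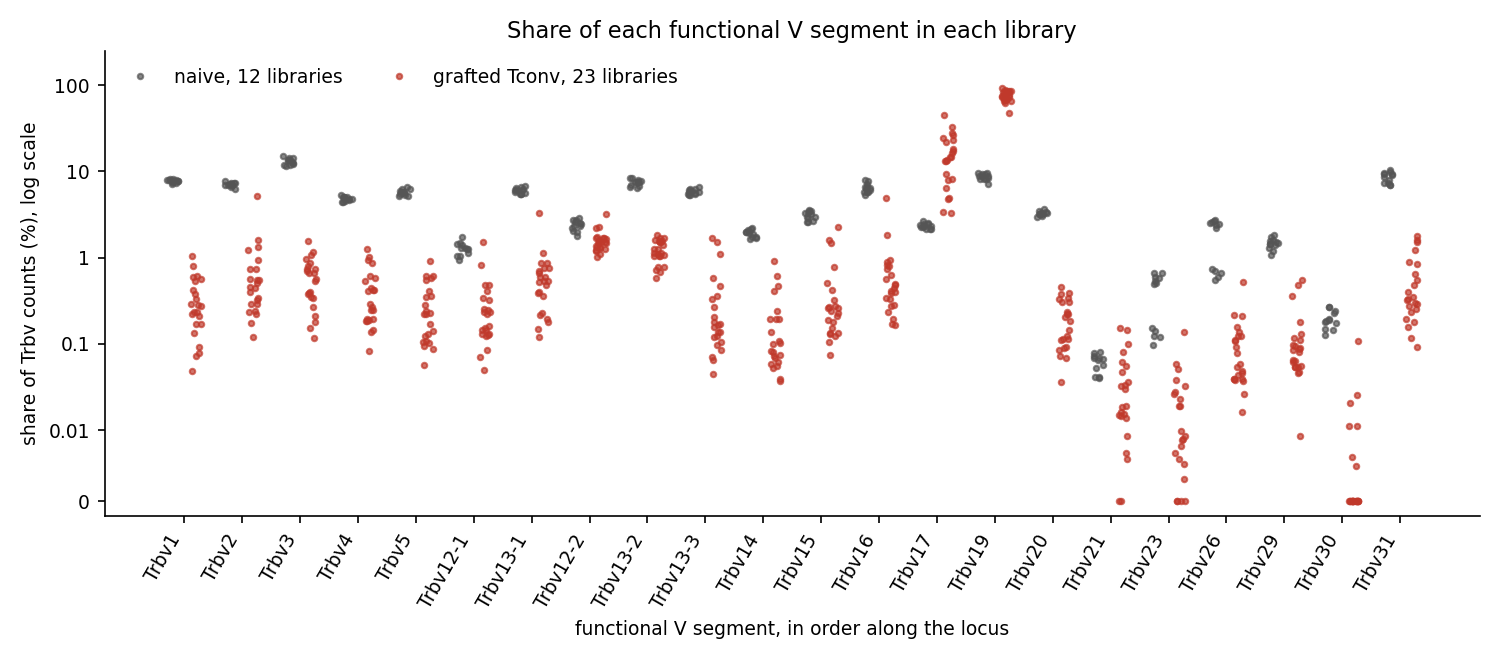
Share of Trbv counts (%, log scale, with 0 drawn at the lowest tick) of each of the 22 functional V segments, 1 point per library, for 12 naive and 23 grafted libraries. Trbv19 and Trbv17 rise above naive, and most others scatter widely below. Trbv12-2 (1.78 to 2.89% in naive against 1.03 to 3.21%) lies below all naive libraries in 20 of the 23 grafted ones.

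Which segment came next differed from library to library. There were 9 different segments in that place, with Trbv12-2 (Vβ5.1) in 10 libraries, Trbv13-2 in 4, Trbv16 and Trbv31 in 2 each and Trbv12-1, Trbv13-1, Trbv13-3, Trbv15 and Trbv2 in 1 each. The third segment held 12.7 to 52.3% of what Trbv19 and Trbv17 left, and it reached 3% of Trbv counts in 4 libraries, each in a different group with Treg.

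Single libraries stood out for such a segment while their replicates did not. Trbv2 (Vβ4) was at 36.3 CPM, or 5.22% of Trbv counts, in HP1γ KO Tconv with Treg replicate 1 and at 3.18 CPM in replicate 2. Trbv16 (Vβ11) was at 38.8 CPM, or 4.86%, in HP1α WT Tconv with Treg replicate 3 and at 2.46 and 5.42 CPM in replicates 1 and 2. Trbv13-1 (Vβ8.3) was at 19.7 CPM, or 3.31%, in HP1γ WT Tconv with Treg replicate 1 and at 1.09 and 2.52 CPM in the other two. In the fourth case Trbv12-2 was at 22.9 CPM, or 3.21%, in HP1α KO Tconv with Treg replicate 2, against 12.3 and 8.64 CPM. The first 3 of these libraries were at least 7-fold above each of their replicates, so a group mean of such a segment is set by 1 library.

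Trbv12-2 and Trbv13-2 were the steadiest of the minor segments. Trbv12-2 was at 9.51 to 15.9 CPM in naive and 5.63 to 22.9 CPM in grafted libraries. Trbv13-2 was at 31.4 to 62.1 CPM in naive and 3.77 to 10.6 CPM in grafted libraries, about 3-fold across all 23. As length-scaled shares in grafted libraries, Trbv12-2 averaged 2.06% and Trbv13-2 1.81%, behind Trbv19 with 67.0% and Trbv17 with 21.0%. Among pseudogenes, Trbv24 reached 0.729% of Trbv counts and the other 12 at most 0.0635%.

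Each grafted Tconv group was then compared with naive cells of its line and genotype to measure the sizes on a common scale. A member was called when edgeR's quasi-likelihood test gave an adjusted p (Benjamini-Hochberg, over all genes tested) under 0.05 and the log2 fold change exceeded 1 in size. In HP1α WT, 19 of 25 members tested were called, 2 higher and 17 lower, where 23.1% of all genes were called (12.9% higher and 10.2% lower). In HP1α KO it was 20 of 24, 2 higher and 18 lower, against 19.7% of all genes (12.4% and 7.24%). In HP1γ WT it was 19 of 25, 2 higher and 17 lower, against 23.5% (15% and 8.55%). In HP1γ KO it was 19 of 26, 2 higher and 17 lower, against 23.1% (15.7% and 7.3%). The sort fixes most of these counts, so nothing is read from them, and the members tested were those that passed a filter on low counts. Median log2 fold changes of the members tested were −3.89, −3.21, −4.18 and −2.87 in this order, against −0.04, −0.01, −0.03 and 0.02 for all genes. In each comparison Trbv19 and Trbv17 were the only members edgeR called higher, and 15 members were called in all 4. DESeq2 called 20, 21, 19 and 20 members, with 20.5%, 18.7%, 22.1% and 20.2% of all genes. In HP1γ KO it also called the pseudogene Trbv7 higher (adjusted p = 0.0299 by DESeq2). Trbv7 held at most 15 counts in any library and was at 0.0961, 0.329 and 0.133 CPM in these Tconv.

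For Trbv19, the 12 naive libraries lay between 35.8 and 69.6 CPM. The Tconv libraries held 420, 420 and 537 CPM in HP1α WT, 319, 425 and 417 CPM in HP1α KO, 445, 383 and 371 CPM in HP1γ WT and 480, 455 and 377 CPM in HP1γ KO. Every grafted value lay far above every naive one. The log2 fold changes by edgeR were 3.54 (SE 0.129, adjusted p = 4.85e-07) and 3.33 (SE 0.135, adjusted p = 6.47e-06) in HP1α WT and KO, and 2.90 (SE 0.233, adjusted p = 8.45e-05) and 3.19 (SE 0.128, adjusted p = 7.91e-07) in HP1γ WT and KO.

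For Trbv17, naive libraries lay between 9.76 and 21.0 CPM. The Tconv libraries held 41.0, 79.99 and 19.2 CPM in HP1α WT, 137, 70.3 and 82.5 CPM in HP1α KO, 41.2, 146 and 21.0 CPM in HP1γ WT and 54.1, 17.5 and 120 CPM in HP1γ KO. The lowest of these were within the range of naive CPM, unlike the shares. By edgeR the log2 fold changes were 2.17 (SE 0.490, adjusted p = 0.0122), 3.06 (SE 0.256, adjusted p = 1.48e-04), 2.21 (SE 0.665, adjusted p = 0.0376) and 2.45 (SE 0.683, adjusted p = 0.0347) in HP1α WT, HP1α KO, HP1γ WT and HP1γ KO.

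The Trbv17 call held under every alternative in HP1α KO. In HP1α WT it was lost without any 1 of the 3 naive libraries (adjusted p 0.0561 to 0.0619), and in HP1γ WT without any 1 of the 3 naive libraries or without Tconv replicate 2, which brought the log2 fold change to 1.05. In HP1γ KO it was lost without any 1 of the 3 naive libraries, without Tconv replicate 1, and with the replicate number as a block (2.07, adjusted p = 0.103). Without a filter on low counts it was lost in these 3 comparisons (adjusted p 0.0736, 0.199 and 0.116, all edgeR).

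**Figure D3:**
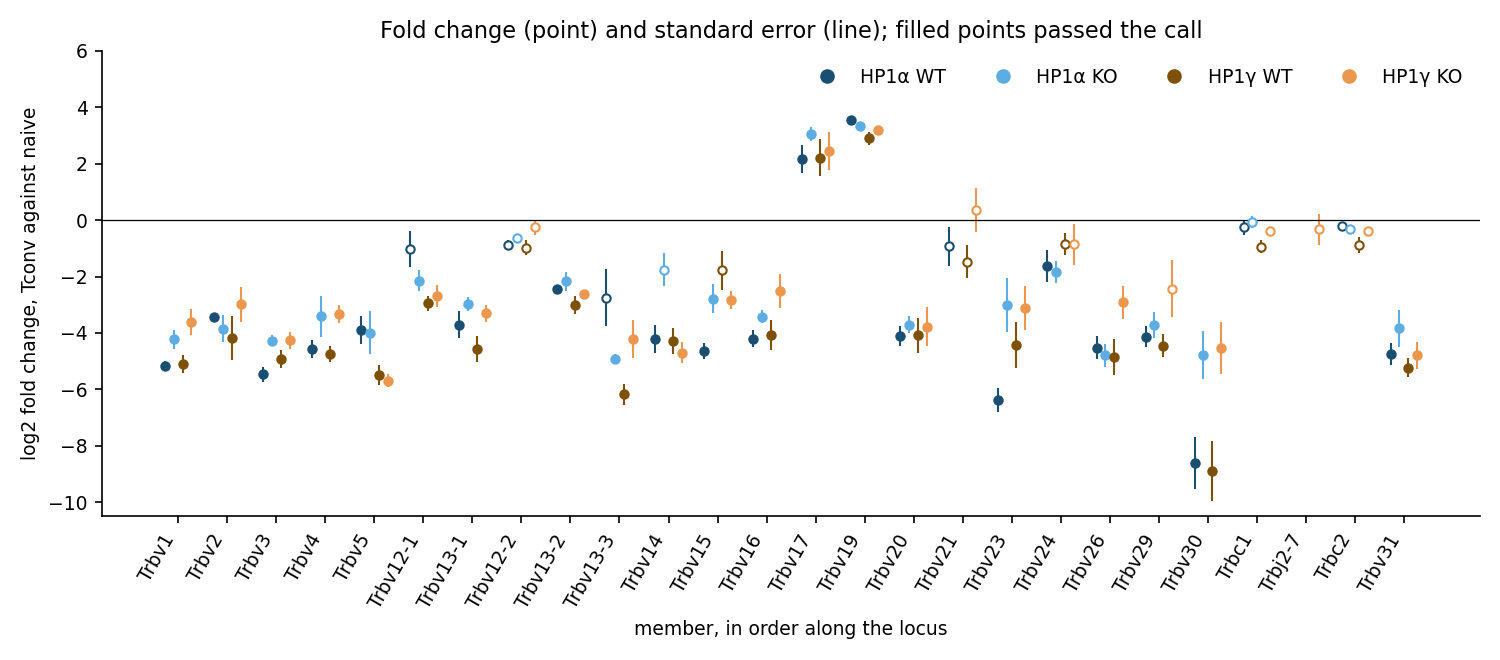
Log2 fold change (point) and standard error (line) of each member tested in grafted Tconv against naive cells, in locus order, for the 4 pairs of line and genotype, with filled points for calls by edgeR. Trbv19 (2.90 to 3.54) and Trbv17 (2.17 to 3.06) lie above 0, while most V segments lie between −2 and −6 and Trbc1 and Trbc2 lie near 0. The points of Trbv30 in the WT groups rest on 0 counts in Tconv and are not bounds.

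Members called lower spanned log2 fold changes of −1.63 to −8.61 (median −4.22) in HP1α WT, −1.84 to −4.92 (median −3.71) in HP1α KO, −2.95 to −8.88 (median −4.57) in HP1γ WT and −2.51 to −5.69 (median −3.34) in HP1γ KO. Trbv3, the leading naive segment at 54.9 to 96.0 CPM, was at 0.898, 2.04 and 1.24 CPM in HP1α WT Tconv (log2 fold change −5.46, SE 0.277, adjusted p = 3.14e-06 by edgeR). Trbv1, at 34.9 to 57.1 CPM in naive libraries, fell to 1.17, 1.14 and 0.779 CPM there (−5.17, SE 0.194, adjusted p = 5.33e-07 by edgeR). These 2 abundant segments were reduced in every library of the group.

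Trbv31 is the only V segment placed in inverted orientation at the far end of the locus, behind the constant genes. It was at 33.1 to 77.5 CPM in naive libraries and 0.537 to 10.8 CPM in grafted ones. Trbv5 (Vβ1) was at 25.2 to 53.1 CPM in naive and 0.2998 to 4.74 CPM in grafted libraries, and its fall was largest in HP1γ KO (−5.69, SE 0.223, adjusted p = 7.21e-07 by edgeR). Trbv13-3 fell by 6.18 on the log2 scale in HP1γ WT (SE 0.369, adjusted p = 2.15e-05 by edgeR), Trbv26 by 4.79 in HP1α KO (SE 0.417, adjusted p = 1.47e-04) and Trbv14 by 4.69 in HP1γ KO (SE 0.371, adjusted p = 2.75e-05). So the segments with the largest falls were not the same in the 4 groups, and a difference between the groups was not tested.

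Trbv30 had 45 to 87 counts in the HP1α WT and 24 to 93 counts in the HP1γ WT naive libraries and none in the Tconv libraries of either, so it was at least 14.3-fold and at least 20.0-fold lower, with a floor of 3 counts per library. Trbv23 was at 2.88, 2.61 and 3.27 CPM in HP1α WT naive libraries and at 0.0272, 0.0422 and 0.0269 CPM, below the level of 3 counts, in the Tconv libraries. At the other end, Trbc1, Trbc2 and Trbv12-2 were called in none of the 4 comparisons, and neither were Trbv21 in the 3 and Trbj2-7 in the 1 in which they were tested. Trbv12-2 was lower by log2 fold changes of −0.88, −0.65, −0.97 and −0.26 in HP1α WT, HP1α KO, HP1γ WT and HP1γ KO, with adjusted p by edgeR of 0.00395, 0.0135, 0.0231 and 0.493.

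The constant genes report on the whole beta chain, whatever its V segment. Trbc1 (ENSMUSG00000076490) and Trbc2 (ENSMUSG00000076498) encode nearly the same protein part, their exons were 88.2% identical over 687 aligned bases with a shared run of 259 bases, and their counts were fractional. Trbc1 was at 567 to 1004 CPM in naive and 291 to 1403 CPM in grafted libraries. Trbc2 was at 1233 to 2537 CPM in naive and 788 to 2375 CPM in grafted libraries. Against naive cells, Trbc2 differed by −0.21, −0.30, −0.89 and −0.37 (log2) and Trbc1 by −0.25, −0.07, −0.94 and −0.40 in HP1α WT, HP1α KO, HP1γ WT and HP1γ KO. In HP1γ WT both had an adjusted p under 0.05 by edgeR (0.0168 for Trbc1 and 0.0447 for Trbc2) and in HP1γ KO so did Trbc2 (0.0297), each with a change of under 2-fold. In HP1γ WT the second naive library held 2537 CPM of Trbc2 where the others held 1350 and 1446, and it was also highest for other receptor genes, with a CD4 T cell marker sum of 7472 CPM against 4373 and 4652. V counts per C count were 0.247 ± 0.010 in naive (SD, n = 12, range 0.225 to 0.259) and 0.332 ± 0.0386 in grafted libraries (SD, n = 23, range 0.211 to 0.381). Of the 23 grafted libraries 22 lay above every naive one, all except HP1α WT Tconv with Treg replicate 3, which was lowest. These counts were not scaled by exon length. Trbv19, which led the grafted libraries, has the longest exons of the V segments, at 566 bases. Longer exons give more counts per transcript, so the rise is not read as more V per C transcript.

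The choice between the constant genes was not sorted for. Trbc1 took 28.4 to 31.8% of Trbc counts in naive libraries (SD 0.921), 18.3 to 46.7% in Tconv (31.04% ± 7.21, SD, n = 12) and 19.2 to 45.8% in Tconv with Treg (30.95% ± 7.33, SD, n = 11). In HP1α WT Tconv the replicates held 36.9, 35.9 and 18.3%, and in HP1α KO 46.7, 27.4 and 30.2%. In HP1α WT Tconv with Treg they held 19.2, 33.9 and 37.1%, and in HP1γ KO with Treg 45.8 and 31.1%. The means hardly moved while single grafted libraries departed in both directions.

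**Figure D4:**
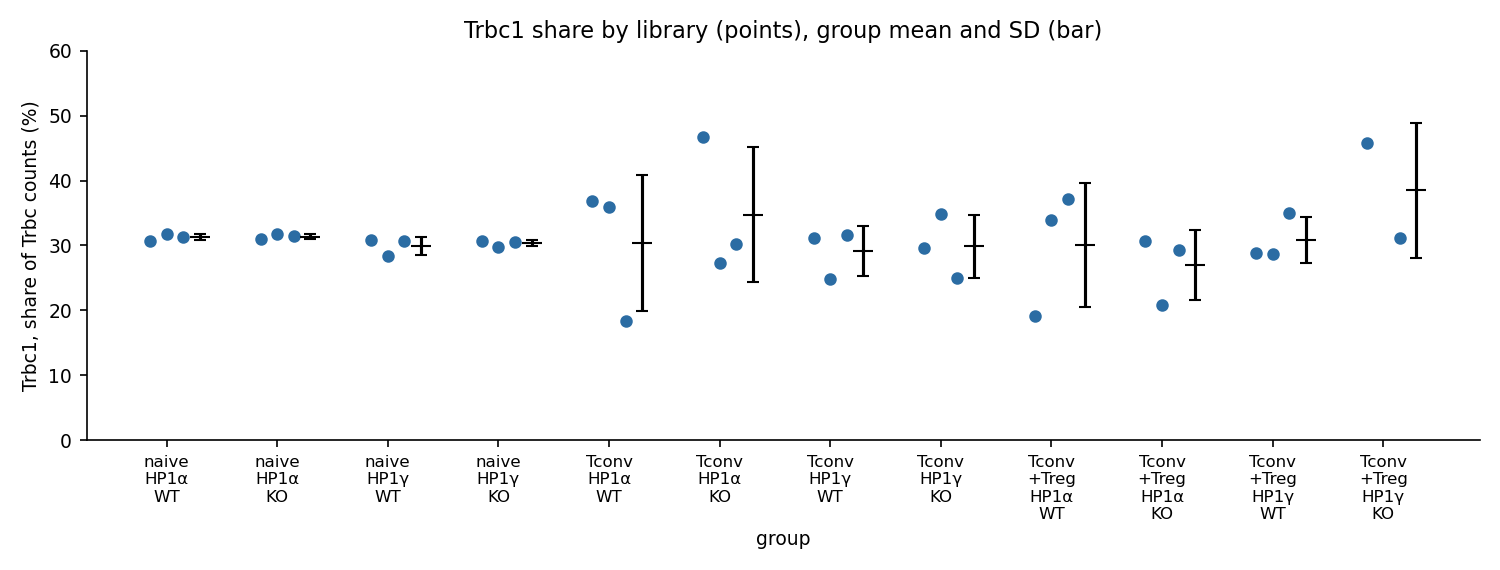
Share of Trbc counts (%) assigned to Trbc1 in each library (points), with the mean and SD of each group (black bar). The 12 naive libraries lie between 28.4 and 31.8%, and grafted libraries between 18.3 and 46.7%, around the same mean.

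By an exact two-sided permutation test within line and genotype, the Trbc1 share in Tconv differed from naive cells by 0.32 percentage points (p = 0.879, adjusted p = 0.879 over the 8 share tests). It differed by 0.54 points between Tconv with Treg and Tconv (exact permutation p = 0.867). KO differed from WT by 2.38 points in grafted cells (exact permutation p = 0.451) and by 0.27 points in naive cells (exact permutation p = 0.63). None of these exceeded the spread between replicates. The tests compare means and do not test the wider spread after grafting.

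J segments were counted only thinly, with 16 to 65 counts over all 14 J segments per library. The sum was 485 counts over the 12 naive and 796 over the 23 grafted libraries. The J1 cluster, which lies ahead of Trbc1, took 46.0% of J counts in naive and 48.1% in grafted cells. Trbj2-7 held 74 naive and 115 grafted counts, Trbj1-4 held 59 and 109, and Trbj1-1 held 45 and 83. Trbj1-4 reached 22 counts in HP1γ KO Tconv with Treg replicate 1, its highest value. Only Trbj2-7 passed the filter, in 1 comparison (HP1γ KO Tconv against naive, log2 fold change −0.33, SE 0.548, adjusted p = 0.664 by edgeR), and the other J segments were not tested. Trbj1-2 held 35 naive and 23 grafted counts, and Trbj2-6 held 6 in each.

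Loss of either HP1 protein was then compared with WT in each condition. No member was called by edgeR in any of the 6 comparisons. In the HP1α line, 0 of 25 members were called in naive cells, 0 of 22 in Tconv and 0 of 22 in Tconv with Treg, where 0%, 0.103% and 0.123% of all genes were called. In the HP1γ line, it was 0 of 25, 0 of 22 and 0 of 24, against 0.00669%, 0.0437% and 0% of all genes. At an unadjusted p under 0.05 by edgeR there were 0, 5 and 5 members in the HP1α line and 1, 3 and 4 in the HP1γ line, where 1.87%, 8.53%, 12.1%, 5.78%, 8.42% and 11.8% of all genes had such a p. DESeq2 called 0, 2 and 2 members in the HP1α line and 0, 0 and 3 in the HP1γ line, where it called 0.0478%, 1.16%, 3.84%, 0.208%, 1.43% and 3.57% of all genes. Median log2 fold changes over the members tested were 0.03, 0.29 and −0.05 in the HP1α line and −0.20, 0.28 and −0.06 in the HP1γ line, with all-gene medians between −0.01 and 0.02.

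Trbv19 passed the test between KO and WT in none of the 6 comparisons by edgeR or DESeq2. With Treg, Trbv19 was at 440, 483 and 540 CPM in HP1α WT and 391, 336 and 375 CPM in HP1α KO (log2 fold change −0.43, SE 0.152, adjusted p = 0.319 by edgeR). It was at 435, 310 and 354 CPM in HP1γ WT and 579 and 492 CPM in HP1γ KO (0.56, SE 0.1796, adjusted p = 0.305 by edgeR). The groups did not overlap in either line and lay in opposite orders, but neither passed the test. As a share of Trbv counts, Trbv19 differed between KO and WT by −0.62 percentage points over all grafted libraries (exact permutation within line and condition, two-sided, p = 0.872) and by −0.07 points in naive cells (p = 0.805, where the smallest p the exact test can give is 0.005). The value over grafted libraries joined both knockouts and both conditions, whose differences were unlike. In Tconv, mean shares were 72.6% in KO and 84.3% in WT for HP1α and 79.4% and 79.6% for HP1γ. With Treg they were 63.2% in KO and 67.0% in WT for HP1α and 84.1% and 70.9% for HP1γ, where the groups did not overlap.

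Trbv17 varied more than Trbv19 between KO and WT. In HP1γ with Treg it was at 96.1, 117 and 63.8 CPM in WT and at 44.5 and 28.6 CPM in KO, without overlap (log2 fold change −1.32, SE 0.315, adjusted p = 0.225 by edgeR). DESeq2 called it there (−1.34, adjusted p = 0.00216). In HP1α Tconv it was at 41.0, 79.99 and 19.2 CPM in WT and 137, 70.3 and 82.5 CPM in KO (1.05, adjusted p = 0.662 by edgeR), where the values overlapped. In HP1α with Treg it was at 231, 115 and 183 CPM in WT and 102, 317 and 69.5 CPM in KO, again overlapping.

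The other members that DESeq2 called were in part those of single libraries. In HP1α Tconv they were Trbv3 (log2 fold change 1.36, adjusted p = 0.0211 by DESeq2) and Trbv14 (2.55, adjusted p = 0.0149), which edgeR did not call (adjusted p 0.530 and 0.552). In HP1α with Treg they were Trbv13-1 (1.55, adjusted p = 0.0458 by DESeq2) and Trbv16 (−2.58, adjusted p = 0.0370), the latter with 1 WT library at 38.8 CPM. In HP1γ with Treg, Trbv2 (3.36, adjusted p = 0.0475 by DESeq2) rested on 1 KO library at 36.3 CPM, and Trbv29 (2.30, adjusted p = 0.0409) held 0.825 and 3.23 CPM in KO and 0.532, 0.302 and 0.405 CPM in WT.

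Co-injection of Treg was compared with Tconv alone within line and genotype. By edgeR, 1 of 22 members was called in HP1α WT, 0 of 22 in HP1α KO, 0 of 22 in HP1γ WT and 0 of 23 in HP1γ KO, where 5.96%, 0.44%, 0.0126% and 0% of all genes were called. At an unadjusted p under 0.05 by edgeR there were 6, 2, 4 and 1 members, with 22.5%, 15.8%, 6.89% and 7.62% of all genes, and DESeq2 called 4, 0, 1 and 0, with 9.28%, 2.67%, 0.332% and 1.61% of all genes. Median log2 fold changes over the members tested were 0.63, 0.56, 0.35 and 0.12, while the medians over all genes were at most 0.03.

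The member called in HP1α WT was Trbv4, which encodes Vβ10 and whose counts were fractional in all 35 libraries. It was at 0.925, 1.35 and 0.483 CPM in Tconv and 6.75, 6.82 and 3.30 CPM with Treg (log2 fold change 2.62, SE 0.512, adjusted p = 0.0243 by edgeR), without overlap, and far under the 21.5 to 39.8 CPM of naive cells. Leaving out each of its 6 libraries in turn removed the call 5 times (adjusted p 0.0543 to 0.128 by edgeR), that is for every library except replicate 3 with Treg. Trbc2 was at 1019, 1121 and 1295 CPM in HP1α WT Tconv and 1978, 1551 and 2375 CPM with Treg (0.80, SE 0.202, adjusted p = 0.0569 by edgeR). Trbv17 differed by 1.94 there (SE 0.502, adjusted p = 0.0631 by edgeR). These groups did not overlap either. Foxp3, Ikzf2, Il2ra and Lrrc32, the 4 genes of the Treg list, summed to 53.9 to 82.8 CPM in HP1α WT Tconv and 211 to 360 CPM with Treg, while in naive libraries they summed to 13.6 to 26.5 CPM, and CD4 T cell markers summed to 5006 to 5215 CPM without and 6212 to 7410 CPM with Treg. The 4 Treg genes did not move together. Ikzf2, a transcription factor of the Ikaros family, made up most of the sum with Treg, at 25.7, 12.5 and 9.56 CPM without and 182, 155 and 326 CPM with Treg. Il2ra, the alpha chain of the IL-2 receptor, went the other way, at 42.1, 41.6 and 39.0 CPM without and 10.7, 27.8 and 14.9 CPM with Treg. Foxp3, the defining Treg factor, was at 4.405 to 12.1 and 13.5 to 69.2 CPM, and Lrrc32 overlapped between the groups. Their part in these differences was not tested.

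The Trbv19 share was lower with Treg than without by 7.70 percentage points on average (exact two-sided permutation within line and genotype, p = 0.0527, adjusted p = 0.211 over the 8 share tests). These 8 tests include the Trbv19 difference between Tconv and naive cells, which the sort fixed. Its presence lowers this adjusted p. Group means were 67.0% ± 5.35 with Treg against 84.3% ± 7.30 without in HP1α WT, 63.2% ± 14.1 against 72.6% ± 7.10 in HP1α KO, 70.9% ± 4.87 against 79.6% ± 9.27 in HP1γ WT and 84.1% ± 1.25 against 79.4% ± 10.0 in HP1γ KO (SD, n = 3, or n = 2 for HP1γ KO with Treg, exact permutation over all). The share was lower with Treg in 3 of the 4 pairs and higher in HP1γ KO. Treg markers summed to 48.2 to 81.7 CPM without and 69.8 to 177 CPM with Treg in HP1α KO, 55.5 to 67.2 and 49.1 to 68.4 CPM in HP1γ WT and 48.4 to 115 and 98.8 to 175 CPM in HP1γ KO. In HP1α KO, too, Ikzf2 was higher in each library with Treg (41.4, 112 and 58.5 CPM against 13.3, 9.64 and 19.6 CPM) while Il2ra was lower (17.7, 27.0 and 22.5 CPM against 51.3, 29.1 and 40.7 CPM). The part of these genes in the share was not tested. The p fell under 0.05 without any 1 of 6 libraries, down to 0.00846 without HP1γ KO Tconv replicate 3, and with Trbc counts as the denominator (exact permutation p = 0.0161), where the difference was −4.41 points. For size, the sorted difference between Tconv and naive cells was 70.3 points (exact permutation p = 1.25e-05, the smallest it can give).

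Trbv26 (Vβ3) and Trbv23 (Vβ20) varied among naive libraries in a way that was noticed after their levels were seen. Trbv26 was at 12.4, 9.89 and 13.2 CPM in HP1α WT and 12.8, 12.2 and 12.1 CPM in HP1α KO, but at 3.44, 4.39 and 13.2 CPM in HP1γ WT and 3.75, 3.20 and 3.21 CPM in HP1γ KO. Trbv23 was at 2.88, 2.61 and 3.27 CPM and 2.57, 2.56 and 2.46 CPM in HP1α WT and KO, and at 0.718, 0.961 and 3.46 CPM and 0.661, 0.524 and 0.677 CPM in HP1γ WT and KO. In both, 5 of the 6 HP1γ libraries were low and the third HP1γ WT library was as high as the HP1α line. The exons of the pair were 73.7% identical. The expressed pseudogene Trbv24 lies between them and showed no such gap, at 1.73 to 2.61 CPM in the HP1α and 2.02 to 3.78 CPM in the HP1γ line. Nor did Trbv29, further along the locus, as the plot of these segments shows.

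**Figure D5:**
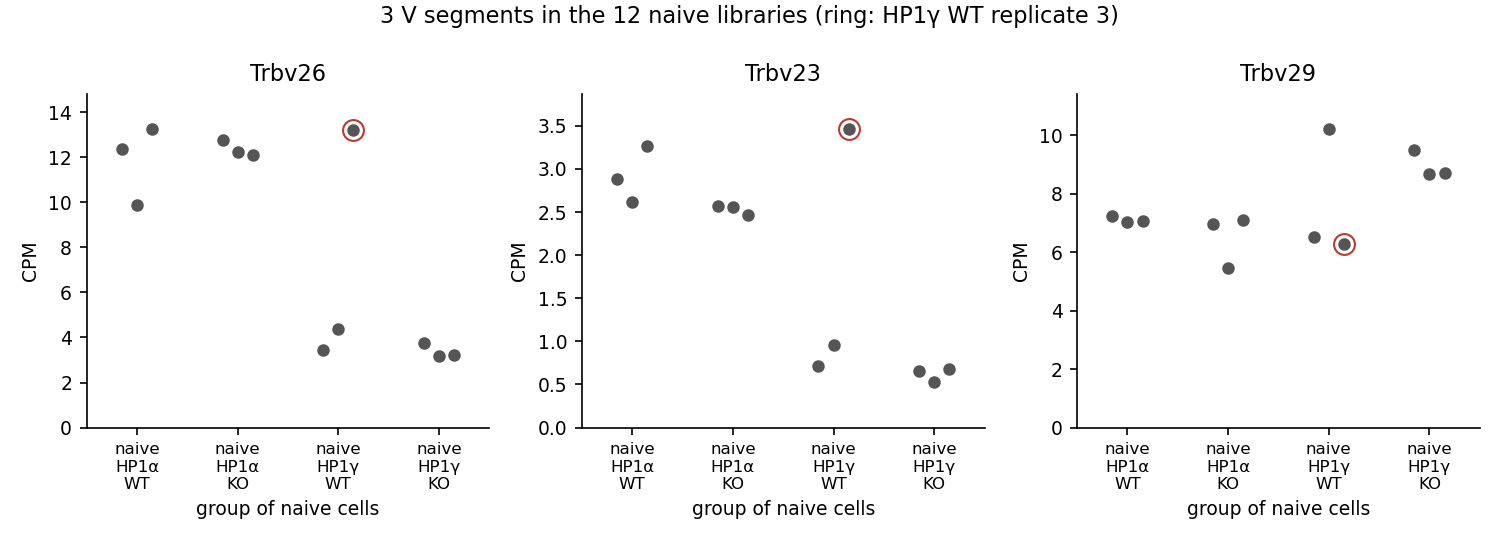
Level (CPM) of Trbv26, Trbv23 and Trbv29 in the 12 naive libraries, 1 point per library, with a ring on HP1γ WT replicate 3. For Trbv26 and Trbv23 that library sits at 13.2 and 3.46 CPM with the HP1α line while the other 5 HP1γ libraries sit at 3.20 to 4.39 and 0.524 to 0.961 CPM.

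Over all naive libraries, with genotype as a covariate, 0 of 25 members were called between the lines by edgeR, where 0.789% of all genes were called (Trbv26 −1.31, SE 0.310, adjusted p = 0.0514, and Trbv23 −1.37, SE 0.365, adjusted p = 0.0702). Without HP1γ WT replicate 3 the differences were −1.74 and −1.91 (log2), with 2 of 25 members and 0.482% of all genes called, but that library was left out for its levels of these 2 members, so nothing is read from their calls and no p is given. That library stood apart from the other 5 HP1γ naive libraries in 15 of 10880 genes, by a gap of over 0.7 on the log2 scale at a mean above 2 CPM. Of the 15, 6 were alpha chain V segments (Trav). Besides these and the 2 Trbv members, the set held Slc15a2, Fn3krp, Rnf157, BC018473, St6galnac2, Erdr1 and Gm47283, which are not receptor segments. Before scaling, BC018473 was at 0 CPM against 43.4 to 104 CPM in the other 5, and St6galnac2 at 0.157 against 44.0 to 85.9 CPM. The cause of this gap was not tested. The labels number the naive libraries of each line on their own and do not say whether the lines were prepared together. With this library in the WT group, HP1γ KO and WT naive cells differed by −1.44 for Trbv23 (adjusted p = 0.630 by edgeR) and −1.03 for Trbv26 (adjusted p = 0.630).

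Other genes of the receptor and of its assembly gave a frame for these values. The list held 21 genes, of which 17 or 18 were tested. They were for receptor chains (Trac, Cd3d, Cd3e, Cd3g, Cd247 and the pre-receptor alpha chain Ptcra), coreceptors, proximal signalling (Lck, Fyn, Zap70, Lat, Lcp2 and others) and recombination (Rag1, Rag2, Dntt). None was called between KO and WT by edgeR in the 6 comparisons, with medians of −0.16 to 0.30. With Treg, 1 of 17 was called, in HP1α WT only, namely Trat1, a receptor-associated adaptor (log2 fold change −1.78, SE 0.335, adjusted p = 0.0210 by edgeR), and medians over the list were 0.05 to 0.14.

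Against naive cells, Dntt was called lower in all 4 comparisons (−7.57, −6.45, −9.14 and −8.91 in HP1α WT, HP1α KO, HP1γ WT and HP1γ KO, adjusted p at most 0.00173 by edgeR). It encodes terminal transferase, which adds bases at V, D and J junctions during thymic recombination. It was at 10.8 to 19.2 CPM in naive and 0 to 0.427 CPM in grafted libraries. HP1γ Tconv held 0.0603, 0 and 0 CPM in WT and 0, 0 and 0.0666 CPM in KO, near the level of 3 counts. The Dntt fold changes there rest on values near 0 and are not bounds. Among the other genes of the list reported here, in HP1γ KO Trat1 was called lower (−1.09, adjusted p = 4.30e-04 by edgeR) and Ptpn22, a phosphatase that dampens receptor signalling, was higher (1.06, adjusted p = 8.78e-05). List medians were 0.36, 0.13, −0.18 and 0.05. The recombinase genes stayed near the floor in all libraries, with at most 0.154 CPM for Rag1 and 0.231 CPM for Rag2. So did Ptcra, with at most 0.249 CPM.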

How the data were processed

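RNA-seq was made by the submitters from spleen CD4 T cells with a SMART-Seq kit. Per the labels and methods, the authors processed reads with nf-core/rnaseq, STAR and Salmon on GRCm39 (mm39 in the submitters' processing notes). The deposited tables hold estimated counts per gene. Over all genes and the libraries used, 82.8% of the values were whole. Counts were rounded here. Segment positions, exon lengths and sequences came from the GRCm39 genome and annotation provided for this work.

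Members, lists and alternatives were chosen with earlier results of these data known. Named members were Trbv19, the other 3 chains for MMTV-7, the 5 further V segments highest per kilobase in naive WT and the 5 further highest by share in grafted libraries, the D and C segments, the 3 highest J segments, and called members (the 5 largest where more than 10 were called). Other genes were named for a list they belong to or, as for Trbv26 and Trbv23 in naive cells, after their values were seen. The values of 1 gene of the receptor list are not reported here.

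Each comparison was fitted on all genes of its groups with edgeR 4.0.16 in R 4.3.3 (filterByExpr, trimmed mean of M values, robust quasi-likelihood), with DESeq2 1.42.0 as an alternative. A call needed an adjusted p under 0.05 and a log2 fold change above 1 in size. Shares were tested by exact two-sided permutation in Python 3.11.15, adjusted over 8 tests, and confidence intervals were Wilson intervals. The scripts were tested on simulated data. Other alternatives were size factors of DESeq2, no filter on low counts, all libraries of a line in 1 fit, a replicate block, the left-out library included, each library left out in turn, and length-scaled counts or Trbc counts as the denominator of shares. The naive comparison of lines was added after seeing the data. Groups share replicate numbers, which the labels do not explain. Same-numbered libraries deviated together, with 3 pairs and every correlation over 0.1, in 2 of the 14 comparisons, HP1α naive KO against WT (0.287 to 0.654) and HP1γ Tconv KO against WT (0.112 to 0.431). In 2 further comparisons every correlation was over 0.1, but these had 2 pairs each.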

Additional observations from a re-analysis of the deposited data

Results flagged for a closer look

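The library left out of all comparisons, HP1γ KO Tconv with Treg replicate 3, had a total of 36961946 counts, just under the lowest of the others, but only 2206 counts in the members. In this library, whose data no comparison used, 9 V segments stood above their highest naive share of Trbv counts, 7 of them on more than 3 counts. Trbv19 took 37.4% (highest naive share 9.69%) and Trbv13-2 took 35.8% (highest naive share 8.44%). Trbv12-2 took 6.57% (2.89%), Trbv17 took 4.21% (2.64%) and the pseudogene Trbv8 took 0.452% (0.0092%, from 4.399 estimated counts). Trbv15 took 4.52% (3.57%) and the pseudogene Trbv24 took 0.925% (0.699%). The remaining 2, Trbv12-3 and Trbv21, held 2 counts and 1 count. Its Trbv19 share was below that of every other grafted library, and Trbv13-2, at most 1.83% in those, was nearly as high as Trbv19. These shares rest on few counts in a library set aside for its read quality, and the part of that quality in them was not tested.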

How the results depend on the processing

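The 78 member results that edgeR called in the main fits were followed under each alternative, which gave 858 member results in all. Many of these came from the same fit, so they are not independent. Of the 858, 816 kept their direction and side of the threshold, 42 lost the call and 0 changed sign. Apart from Trbv4 with Treg in HP1α WT, all 78 were calls of Tconv against naive cells, most of which the sort fixed. Members not called in the main fits could not enter, so these counts do not bear on them. Of the 42, 31 came from leaving out a library, 8 from no filter, 2 from all libraries of a line in 1 fit and 1 from the replicate block (Trbv17, HP1γ KO against naive, 2.07). The replicate block ended no other of these calls, and it called 0 members in both comparisons where numbers paired. With DESeq2 the members called were 2 for HP1α KO in Tconv, 2 for HP1α KO with Treg, 3 for HP1γ KO with Treg, 4 for Treg in HP1α WT and 1 for Treg in HP1γ WT. With all libraries of the line in 1 fit they were 2 for HP1α KO with Treg and 3 for Treg in HP1α WT. Leaving out libraries in turn gave 0 to 1 for HP1γ KO with Treg (1 without KO replicate 2), 0 to 1 for Treg in HP1α WT and 17 to 21, 19 to 21, 18 to 21 and 17 to 19 against naive, and the naive comparison of lines gave 2 without HP1γ WT replicate 3, which was left out for its levels of these members and so supports nothing.

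Trbv19 shares relative to Trbc counts changed sign for KO against WT, to 0.629 in grafted and 0.0760 in naive cells, and gave −4.41 for Treg. With the left-out library the Treg difference was −11.6 (exact permutation p = 0.0191). Leaving out libraries in turn gave, in percentage points for Trbv19, −1.95 to 1.39 (KO, grafted), −0.160 to 0.103 (KO, naive), −9.09 to −5.69 (Treg) and 69.3 to 71.7 (against naive), and for Trbc1 0.548 to 4.21, −0.125 to 0.478, −1.29 to 2.37 and −1.17 to 1.83. The cause of these changes was not tested. J segments and rare V segments were limited by depth, and groups of 2 or 3 limit every comparison.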
